A study of Homo sapiens with 2 samples.

Results

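Hub anchors are the stretches of chromatin that were joined to many others in an H3K27ac HiChIP map of HCT116 cells, an established human colorectal carcinoma line. Nearby chromatin fragments cut with MboI, which cleaves at GATC, were ligated and then immunoprecipitated with an antibody against H3K27ac, so that a count is a read pair that joined a pair of anchors and passed this antibody. The data comprised 2 replicates of this line with no treatment and no control, and nothing in the labels says that the cultures were separate. Any spread between them may be technical, and the p-values given for their comparison cover counting error only. Replicate 1 held 1885481 counts and replicate 2 held 2131466, of which 302149 and 302293 joined an anchor with itself. A strong loop was a pair of different anchors of the same chromosome with midpoints up to 2 Mb apart and a count of 5 or more over both replicates, and an autosomal anchor with 5 or more strong loops was called a hub anchor. By this rule 28903 of the 1966545 autosomal pairs with counts were strong loops (1.47%), and 940 of the 247256 autosomal anchors were hub anchors (0.380%). The hub anchors were thus chosen by their measured counts in strong loops, so the loop number, the summed counts within 2 Mb and everything taken from the strong loops of these anchors are a description without a test. On chromosome X, 0 of 2961 anchors had 5 or more strong loops, and no anchor there had more than 3. The upper limit of 0.101% for this share takes anchors as independent, which anchors that share a loop are not.

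Acetylation of lysine 27 of histone H3 marks active enhancers and active promoters. Enhancers are bound by transcription factors and can contact promoters far along the chromosome through folding of the chromatin fibre, and dense stretches of acetylated enhancers are known as super enhancers. In epithelial tumours such enhancers often carry sites for AP-1, the dimers of FOS and JUN family proteins, and in colorectal cancer WNT signalling acts on genes through TCF/LEF factors. An anchor here is a stretch of several kilobases, so it can hold an enhancer, a promoter or both.

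The sequences below are stretches of the hub anchors that the results turn on, in the GRCh37 (hg19) build and on the forward strand. Capitals mark the MboI site GATC and the AP-1 consensus TGACTCA or TGAGTCA, which are each other's reverse complement. The central 300 bases of the hub anchors with the highest loop number and with 29 strong loops, both inside the gene PCDH7 on chromosome 4 and away from exons, are shown first (chr4:30949731-30950030 and chr4:30862635-30862934).
PCDH7 hub with 33 strong loops: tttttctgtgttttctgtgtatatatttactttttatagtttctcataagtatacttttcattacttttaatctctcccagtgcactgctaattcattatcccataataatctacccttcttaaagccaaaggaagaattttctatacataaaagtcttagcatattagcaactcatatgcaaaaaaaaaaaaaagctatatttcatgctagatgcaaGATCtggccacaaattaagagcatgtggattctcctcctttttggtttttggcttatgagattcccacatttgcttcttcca
PCDH7 hub with 29 strong loops: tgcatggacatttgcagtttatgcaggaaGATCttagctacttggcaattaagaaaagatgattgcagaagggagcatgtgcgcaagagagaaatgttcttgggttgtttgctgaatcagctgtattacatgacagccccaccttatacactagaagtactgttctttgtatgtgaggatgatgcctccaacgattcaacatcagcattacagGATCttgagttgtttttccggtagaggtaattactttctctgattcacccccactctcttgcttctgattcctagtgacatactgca
Both are poor in G and C (31.3% and 42.0%) and hold 0 and 3 CpG dinucleotides. Neither holds an AP-1 consensus, but the whole anchors hold 6 and 2, with at most 1 in any stretch of 300 bases. The next set shows the stretch of 300 bases with the most AP-1 matches in hub anchors outside protein-coding genes, a choice made after the matches had been counted. They lie between BTC and the AREG duplicate AREGB on chromosome 4 (chr4:75543852-75544151), beyond KRR1 on chromosome 12 (chr12:76054550-76054849) and upstream of MIR31HG on chromosome 9 (chr9:21684843-21685142).
AREGB-BTC hub: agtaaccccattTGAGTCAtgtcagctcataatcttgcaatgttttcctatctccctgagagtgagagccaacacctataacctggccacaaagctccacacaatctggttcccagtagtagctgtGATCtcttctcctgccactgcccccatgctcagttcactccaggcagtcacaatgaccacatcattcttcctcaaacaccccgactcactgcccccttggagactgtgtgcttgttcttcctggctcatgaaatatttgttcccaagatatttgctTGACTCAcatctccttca
KRR1 hub: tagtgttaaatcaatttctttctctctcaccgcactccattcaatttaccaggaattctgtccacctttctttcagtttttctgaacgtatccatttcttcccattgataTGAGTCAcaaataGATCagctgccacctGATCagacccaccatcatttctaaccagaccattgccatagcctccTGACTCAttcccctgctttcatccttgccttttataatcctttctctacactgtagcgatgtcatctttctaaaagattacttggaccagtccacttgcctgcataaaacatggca
MIR31HG hub: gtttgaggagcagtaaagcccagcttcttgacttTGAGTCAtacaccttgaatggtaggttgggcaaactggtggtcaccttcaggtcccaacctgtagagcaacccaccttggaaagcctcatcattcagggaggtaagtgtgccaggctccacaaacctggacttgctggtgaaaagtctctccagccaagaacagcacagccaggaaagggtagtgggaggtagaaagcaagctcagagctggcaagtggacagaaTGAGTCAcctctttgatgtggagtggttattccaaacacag
Each stretch holds 2 AP-1 matches, and the whole anchors hold 12, 5 and 10. None of the stretches overlaps an annotated exon. Other leading hub anchors, not shown, differ from these examples. The hub anchor at chr12:76092436-76110408, also outside protein-coding genes, holds 3 matches, with at most 1 in any stretch of 300 bases. The PCDH7 hub anchor at chr4:31084524-31099027 holds 4, with 2 in 1 such stretch. A promoter is shown for contrast: the 300 bases upstream of the start site of TCF7L2, the TCF/LEF factor of the intestinal epithelium, lie in a hub anchor with 17 strong loops (chr10:114709706-114710005).
TCF7L2 promoter: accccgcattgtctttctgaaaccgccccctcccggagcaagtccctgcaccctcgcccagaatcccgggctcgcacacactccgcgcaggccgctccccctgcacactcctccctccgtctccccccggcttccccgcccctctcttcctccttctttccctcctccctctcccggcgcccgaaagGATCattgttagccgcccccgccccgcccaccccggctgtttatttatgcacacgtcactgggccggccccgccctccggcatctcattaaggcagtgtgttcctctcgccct
This stretch is 67.0% G and C and holds 24 CpG dinucleotides, 1 GATC and no AP-1 consensus.

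Most hub anchors stood close to the threshold of 5 strong loops. Of the 940, 366 had exactly 5, 574 had 6 or more, 164 had 10 or more (17.4%), 17 had 20 or more and 2 had more than 30, and the median was 6. The highest number was 33. Just outside, 696 anchors had 4 strong loops, with a median count within 2 Mb of 84, compared with 99 for the anchors with exactly 5. The anchors on both sides of the threshold thus lay close together in depth.

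The hub anchors were far more deeply covered than other anchors, in counts that the rule used and in counts that it did not. The median count within 2 Mb was 59 in replicate 1 and 69 in replicate 2 for hub anchors and 8 and 9 for all autosomal anchors. Over the hub anchors it ran from 18 to 343 in replicate 1 and from 22 to 433 in replicate 2. Counts of an anchor with itself were not part of the rule, although they share the antibody, the width and the copy number of the anchor with the counts that were. Their median over both replicates was 25 in the hub anchors (12 and 13 by replicate) and 1 in all anchors, and every hub anchor had such a count, 933 of them in both replicates. Per kilobase the median same-anchor count was 3.82 in hub anchors and 0.478 in all anchors. The mean of the hub anchors was 7.25 ± 0.227 times that of all anchors for counts within 2 Mb, 13.1 ± 1.26 times for same-anchor counts and 5.57 ± 0.103 times for counts over 2 Mb (SD, n = 2). Divided by width, these ratios were 3.20 ± 0.100, 5.79 ± 0.558 and 2.46 ± 0.0457. With each count within 2 Mb taken at both of its anchors, hub anchors held 2.75% ± 0.0862 of the sum over all anchors. Of the counts in strong loops, each taken once, 24.6% ± 0.871 lay in loops with a hub anchor at 1 end or both. These shares have different bases and cannot be set against each other.

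By the rule a hub anchor has at least 25 counts within 2 Mb, so depth and membership are tied. All 154 anchors with 200 or more counts within 2 Mb were hub anchors, as were 549 of 1004 with at least 100 but under 200 (54.7%), 236 of 9981 with 50 to 99 (2.36%) and 1 of 55079 with 25 to 49. By same-anchor count, which the rule did not use, 588 of the 2003 anchors with 20 or more were hub anchors (29.4%), and none of the 81379 with 0.

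The replicates were then compared anchor by anchor. In the plot of the counts of both replicates the hub anchors lay around the line of equal ratio, and the share of an anchor's counts that came from replicate 1 had a median of 45.7% and ran from 25.4% to 60.5%. By a two-sided exact binomial test of this share against that of all anchors (46.4%), with Benjamini-Hochberg adjustment over 246749 anchors, 0 hub anchors and 0 anchors in all (0.00%) had an adjusted p under 0.05. The rule used the sum of the replicates and not its split, and the test covers counting error only. At an unadjusted p under 0.05 there were 59 hub anchors (6.28%) and 9039 anchors in all (3.66%). When the rule was applied to each replicate alone with a minimum of 5 counts, it gave 133 hub anchors in replicate 1 and 207 in replicate 2. All of these were among the 940 by construction, since a pair with 5 counts in 1 replicate has at least 5 in the sum. The 111 found in both were 83.5% of the first and 53.6% of the second. With a minimum of 3 counts there were 748 and 1188, and the 543 shared were 72.6% and 45.7% of them.

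**Figure D1:**
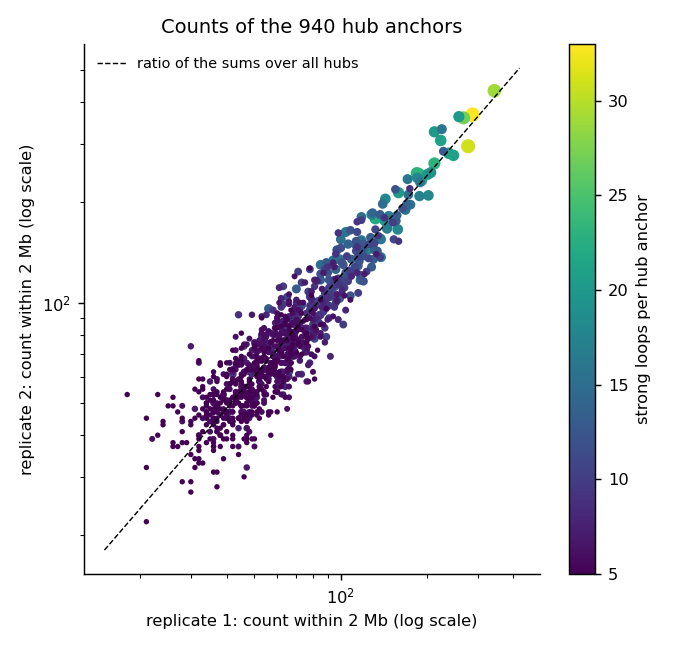
Count of each of the 940 hub anchors with other anchors up to 2 Mb away, in replicate 1 (x axis) and replicate 2 (y axis), both on log scales, with the colour and size of a point giving its number of strong loops. The dashed line is the ratio of the sums over all hub anchors. Points run from 18 to 343 in replicate 1 and from 22 to 433 in replicate 2, and the anchors with the most loops are those with the most counts.

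Hub anchors were wide. Their median width was 6035.5 bp (quartiles 4297.5 and 9079.25 bp, range 1375 to 35882 bp) and that of all autosomal anchors 2547 bp, and 32 of the 940 were at or below this value (3.40%). The share of anchors that were hub anchors rose from 0.0224% below 2.5 kb (27 of 120331) through 0.341%, 1.35% and 4.03% in the classes of 2.5 to 5, 5 to 10 and 10 to 20 kb to 18.9% at 20 kb or more (17 of 90). The rule sets no count per length. Most wide anchors were still not hub anchors. Of the 4254 anchors of 10 kb or more, 4069 were not hub anchors, and these had a median count within 2 Mb of 51 and a median same-anchor count per kilobase of 0.786. The number of anchors within 50 kb had a median of 11 for hub anchors and 11 for all anchors. Hub anchors had a median of 2.46 MboI sites per kilobase and all anchors 2.64, but this value fell with width. In classes of like width below 20 kb it was higher in hub anchors. It was 3.44 and 3.05 below 2.5 kb, 2.99 and 2.44 at 2.5 to 5 kb and 2.39 and 2.16 at 5 to 10 kb. At 10 to 20 kb it was 2.01 and 1.97, and at 20 kb or more 1.76 and 1.82. The part of cutting sites in hub number was not tested.

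**Figure D2:**
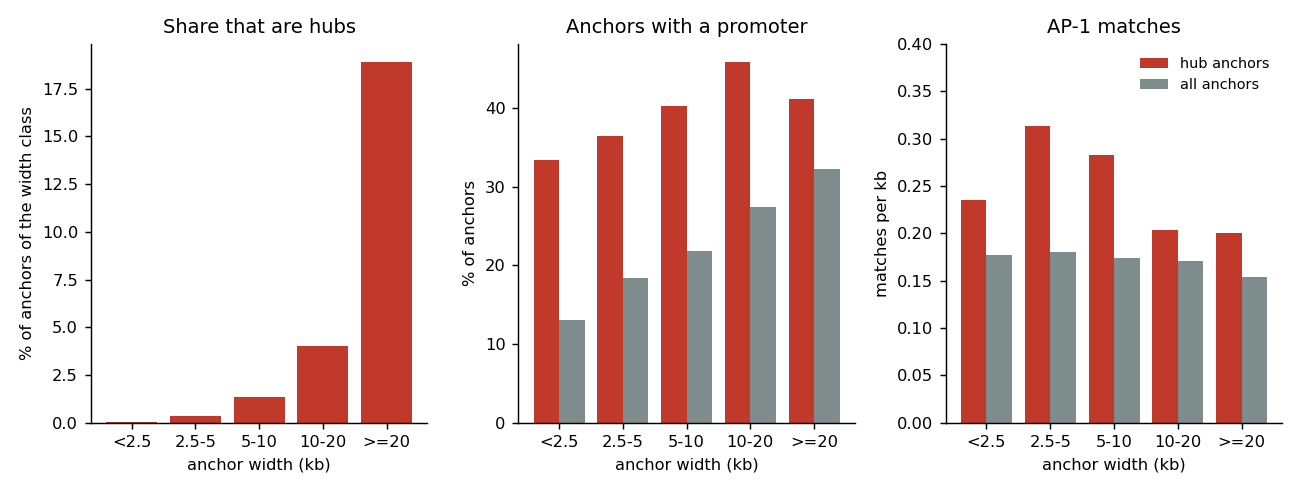
Left, the percentage of autosomal anchors in each class of width (kb) that were hub anchors, from 0.0224% to 18.9%. Middle and right, the percentage of anchors with a promoter and the number of AP-1 consensus matches per kilobase in hub anchors (red) and in all anchors of the same class (grey), with the red bar the higher in every class.

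Promoters were frequent in hub anchors, but most hub anchors had none. A promoter was the start site of the canonical transcript of any gene with 2.5 kb on each side. Such a window reached 374 hub anchors (39.8%), 25.5% of the anchors with 1 to 4 strong loops and 16.3% of all anchors. The share was not highest in hub anchors as a whole. It was 44.8% in the anchors with exactly 4 strong loops and 46.7% in those with exactly 5. For protein-coding genes alone the shares were 23.0% in hub anchors (216), 6.59% in all anchors and 31.2% in the anchors with exactly 4 strong loops. Within classes of width the share was higher in hub anchors than in all anchors, 36.4% compared with 18.4% at 2.5 to 5 kb and 45.8% compared with 27.4% at 10 to 20 kb. Among anchors of like depth the order depended on the class. With 50 to 99 counts within 2 Mb it was 49.2% in hub anchors and 38.0% in all anchors, and with at least 100 and under 200 it was 38.3% and 39.7%. By same-anchor count it was 54.5% and 15.4% at 1 to 4 (22 hub anchors), 40.5% and 24.2% at 5 to 9, 33.1% and 36.4% at 10 to 19 and 42.0% and 49.2% at 20 or more. Of the 566 hub anchors without a promoter, 465 had a strong loop to an anchor with one (82.2%), and 101 of the 940 (10.7%) neither held a promoter nor were joined to one. The start sites within hub anchors belonged to 235 protein-coding genes, 157 long noncoding RNAs and 24 microRNAs. A protein-coding gene was overlapped by 60.9% of hub anchors and 53.7% of all anchors, and 368 hub anchors (39.1%) overlapped none.

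Base composition differed between hub anchors with and without a promoter. The median G and C content was 45.1% in hub anchors and 40.9% in all anchors. It was 51.7% in hub anchors with a promoter and 42.1% in those without, and the ratio of observed to expected CpG dinucleotides was 0.372 and 0.213. The hub anchors with 10 or more loops had a median G and C content of 40.4%, a median width of 8476 bp and a promoter in 31.1% of cases, and were thus lower in G and C and wider than the hub anchors with 5 to 9 loops (46.4% and 5632 bp).

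AP-1 letters were more frequent in hub anchors than in anchors as a whole. TGACTCA or TGAGTCA stood in 736 hub anchors (78.3%) and in 39.9% of all anchors, as wide anchors hold more of any motif. Per kilobase there were 0.257 matches in hub anchors and 0.177 in all anchors, and in the class of 2.5 to 5 kb 0.314 and 0.181. In the central 300 bases alone, a window of equal length for all, 87 hub anchors (9.26%) and 5.36% of all anchors had a match. Hub anchors without a promoter had 0.280 matches per kilobase and those with one 0.223. This measure also moved with depth. Hub anchors and all anchors had 0.212 and 0.201 matches per kilobase at 50 to 99 counts within 2 Mb, and 0.263 and 0.255 in the class of at least 100 and under 200, where 54.7% of the anchors were hub anchors. By same-anchor count they had 0.205 and 0.185 at 5 to 9, 0.256 and 0.193 at 10 to 19 and 0.260 and 0.232 at 20 or more. The TCF/LEF letters CTTTGAT or ATCAAAG went the other way as a whole, with 0.145 matches per kilobase in hub anchors and 0.174 in all anchors. A match stood in 3.40% and 5.41% of the central windows. By depth the order was not uniform. It was 0.122 and 0.157 at 50 to 99 counts within 2 Mb and 0.137 and 0.143 at 100 to under 200. The anchors with 200 or more, all of them hub anchors, had 0.186. By same-anchor count it was 0.121 and 0.170 at 5 to 9, 0.144 and 0.156 at 10 to 19 and 0.148 and 0.137 at 20 or more. The part of depth and base composition in these differences was not tested. The core of the CTCF motif, searched on both strands, matched 0 hub anchors and 97 of all anchors (0.0392%), too few to compare. In the central windows GATC was present in 52.0% of hub anchors and 67.6% of all anchors.

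The strong loops of hub anchors were longer than other strong loops, a difference that the rule itself favours. Of the 28903 strong loops, 5222 had a hub anchor at 1 end or both (18.1%), and 1683 joined a hub anchor with another. The median length was 44.5 kb for loops between hub anchors, 19.7 kb for loops from a hub anchor to another anchor and 8.79 kb for loops without one. Lengths of 20 kb or more made up 74.7%, 49.4% and 11.7% of these classes. Of the 1027 strong loops of 100 kb or more, 799 touched a hub anchor. Loops between anchors next to each other made up 27.2% of the strong loops with a hub anchor and 74.3% of those without. Of the 427 strong loops with 20 or more counts, 364 had a hub anchor. Both replicates had counts in 97.3% of the strong loops with a hub anchor and in 95.9% of those without. When all counts within 2 Mb were taken, whether in strong loops or not, 24.9% of those of hub anchors spanned less than 20 kb, 32.8% 20 to 100 kb and 42.3% more than 100 kb, compared with 24.7%, 24.8% and 50.5% for all anchors, so the whole of their contacts was not longer.

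**Figure D3:**
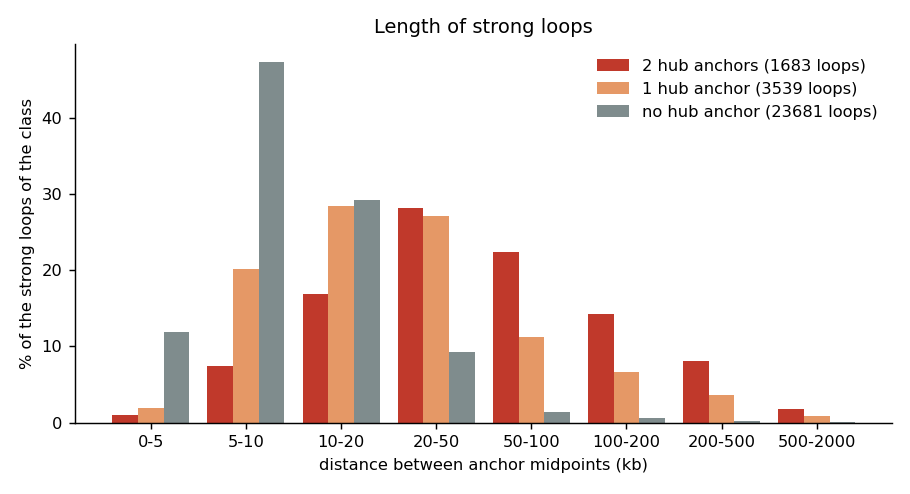
Percentage of the strong loops of each class by distance between anchor midpoints (kb), for the 1683 loops between hub anchors (red), the 3539 loops from a hub anchor to another anchor (orange) and the 23681 loops without a hub anchor (grey). Loops without a hub anchor peak at 5 to 10 kb and loops between hub anchors at 20 to 50 kb.

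The longest strong loop of a hub anchor had a median of 95.6 kb and ran from 17.8 to 1114.5 kb. Of the 940 hub anchors, 721 (76.7%) had a strong loop to another hub anchor and 935 had a strong loop of 20 kb or more. Only 313 (33.3%) had 5 or more loops of that length. The strong loops took a median of 45.8% of a hub anchor's counts within 2 Mb (18.9% to 84.1%).

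Hub anchors were unevenly spread over the chromosomes. Chromosome 17 held 149, 15.9% of all hub anchors and 1.75% of its own anchors, followed by chromosome 8 with 116, chromosome 1 with 82, chromosome 4 with 73 and chromosome 10 with 69. Chromosomes 5, 13 and 21 held 10, 6 and 2. Together chromosomes 8, 10 and 17 had 334 hub anchors (35.5%) on 13.8% of the anchors. The other anchors of these chromosomes, which are not hub anchors, were also deeper, with a mean count within 2 Mb of 25.1 and a mean same-anchor count of 2.79, compared with 19.3 and 2.24 on the other autosomes. HCT116 is known to carry extra copies of parts of the long arms of chromosomes 8, 10 and 17. Copy number was not measured here, and its part in the number of hub anchors was not tested. Without these chromosomes, 606 hub anchors remained among 213099 anchors (0.284%), with a median width of 6124.5 bp, a promoter in 38.0% and 0.267 AP-1 matches per kilobase.

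**Figure D4:**
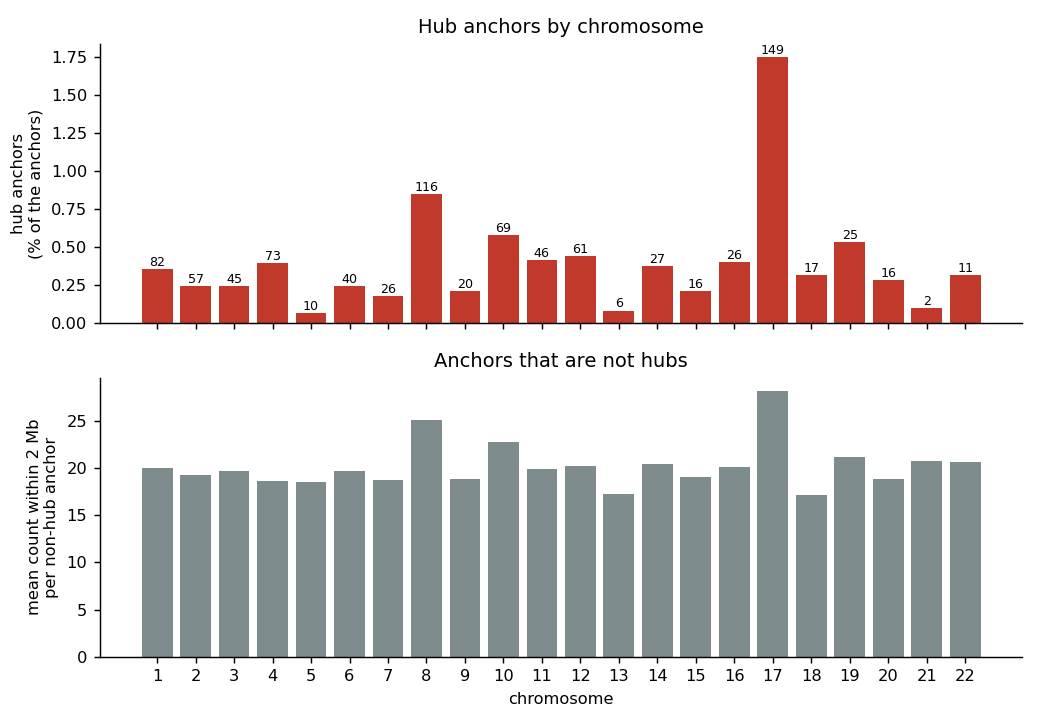
Top, the percentage of the anchors of each autosome that were hub anchors, with their number above the bar. Bottom, the mean count within 2 Mb of the anchors that were not hub anchors (both replicates summed). Chromosomes 17, 8 and 10 are the highest in both panels, and chromosome 4 with its 73 hub anchors is not raised in the lower one.

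On a finer scale, 27 of 563 windows of 5 Mb (4.80%) held 50% of the hub anchors, and 211 windows held any. The fullest windows lay at 125 to 130 Mb of chromosome 8 with 49 hub anchors, at 70 to 75 and 75 to 80 Mb of chromosome 17 with 41 and 36, and at 30 to 35 Mb of chromosome 4 with 32. In the first 3 the other anchors had mean same-anchor counts of 3.35, 4.83 and 5.02 and mean counts within 2 Mb of 41.0, 41.3 and 43.3. In the chromosome 4 window these means were 1.67 and 20.5, compared with a median of 2.15 same-anchor counts over 532 windows, so the hub anchors there stood among anchors of ordinary depth. Across these 532 windows the share of hub anchors had a Spearman correlation of 0.469 with the mean same-anchor count of the other anchors and of 0.0469 with their mean count over 2 Mb. The windows share the libraries, and these values are a description.

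Hub anchors also lay next to each other. With gaps of up to 50 kb they fell into 419 groups, of which 272 held a single hub anchor. The 668 in groups of 2 or more were 71.1% of all. The 44 groups of 5 or more held 408 hub anchors (43.4%) and the 14 groups of 10 or more held 205 (21.8%). The next anchor on either side was a hub anchor for 352 (37.4%). Hub anchors that share a strong loop raise each other's number, so members of a group are not independent.

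The largest group covered PCDH7, which encodes a protocadherin, a cell adhesion protein of the cadherin family. It held 32 hub anchors among 41 anchors over 391 kb (chr4:30715496-31106447), and these hub anchors covered 256 kb. They had 232 strong loops, 215 of them within the group, with a summed count of 1356 in replicate 1 and 1810 in replicate 2. Of the 496 pairs of these hub anchors, 442 had counts (89.1%), 215 were strong loops (43.3%) and 46 had 20 or more counts. Contacts were thus present between most pairs and were not limited to neighbours.

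The hub anchor with the highest loop number of all autosomes lay in this group (chr4:30933668-30966093, 32426 bp). It had 33 strong loops, 288 and 367 counts within 2 Mb in replicates 1 and 2 and 68 and 89 same-anchor counts. Its strongest loop reached chr4:30854823-30870746, 87.1 kb away, with 19 and 28 counts (47 in all, exact Poisson 95% interval 34.5 to 62.5), and a hub anchor 193 kb away shared 12 and 27 counts with it (39 in all, 27.7 to 53.3). Of the 15 hub anchors with the most strong loops, 8 lay in PCDH7. The hub anchor that the promoter window of PCDH7 reached (chr4:30715496-30719974) had 6 strong loops and 59 and 65 counts, so it was a minor member. In replicates 1 and 2 alone, with a minimum of 3 counts, 28 and 32 anchors of this stretch were hub anchors. The nearest other protein-coding gene, STIM2, was 3907 kb from the anchor with 33 loops, beyond the 2 Mb limit of a loop.

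**Figure D5:**
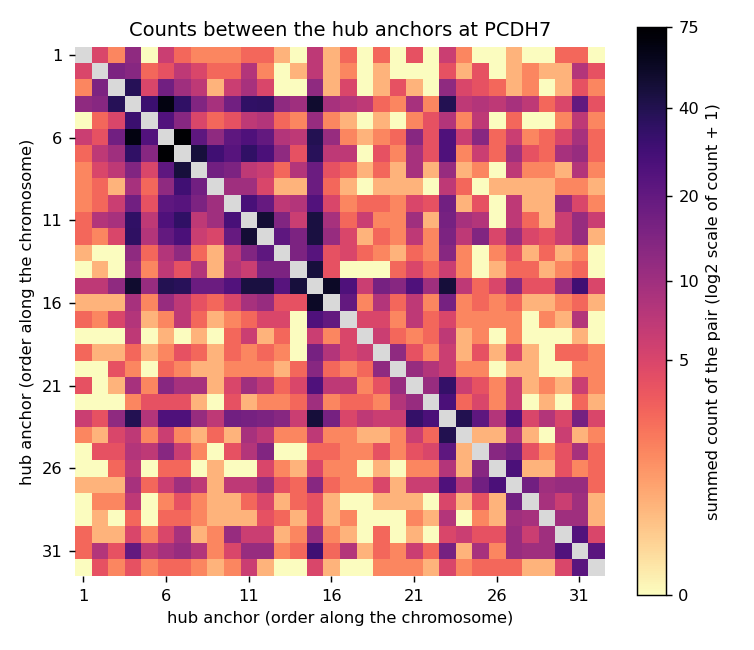
Summed counts of both replicates for each pair of the 32 hub anchors in the PCDH7 group, ordered along the chromosome on both axes, with the colour on a log2 scale of count + 1 and the diagonal (an anchor with itself) in grey. Counts are present for 442 of the 496 pairs, the highest being 75, and single hub anchors stand out as dark lines that cross the whole group.

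The next groups joined a gene with its surroundings. At TRIB1, a pseudokinase gene, 21 hub anchors lay over 341 kb (chr8:126374399-126714930), with LINC02964 at the far side, and 19 more lay within NSMCE2, a gene for a SUMO ligase of the SMC5/6 complex (chr8:126121209-126317597). The hub anchor in NSMCE2 at chr8:126281394-126292844 had 31 strong loops, with 278 and 295 counts. The anchor with the TRIB1 start site had 22 strong loops, 142 and 178 counts and 17 hub partners, the most loops of any anchor with a protein-coding start site. It was joined to the NSMCE2 hub 155 kb away by 8 and 14 counts and to the hub in LINC02964 270 kb away by 3 and 6. MYC, the oncogene of the same 5 Mb window, had 0 strong loops at its promoter anchor, with 46 and 56 counts within 2 Mb.

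On chromosome 10, 17 hub anchors lay over ACSL5, ZDHHC6 and VTI1A (chr10:114091832-114352837), genes of fatty acid activation, palmitoylation and vesicle transport. The TCF7L2 promoter shown above lay outside the group, 435 kb from its strongest hub partner within VTI1A, with which it shared 7 and 7 counts (14 in all). The further loops of TCF7L2 to hub anchors in VTI1A had 12, 11 and 11 counts at 416, 476 and 463 kb. TCF7L2 had 137 and 156 counts within 2 Mb.

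Smaller groups followed at PDP1, a phosphatase of pyruvate dehydrogenase, with TMEM67 (chr8:94812539-95010125, 16 hub anchors), at EZR, which encodes the membrane linker ezrin, with DYNLT1 and SYTL3 (chr6:159061984-159344136, 15), at SLC39A11 and LINC00511 (chr17:70554023-70715007, 13) and in a stretch of chromosome 12 without a protein-coding gene (chr12:76027131-76285730, 11). In the last of these, the hub anchors at chr12:76045044-76063691 and chr12:76092436-76110408 shared 39 and 41 counts over 47.1 kb (80 in all, 63.4 to 99.6). Their nearest protein-coding gene, KRR1, was 140 and 187 kb away, and 1 of them reached the start site anchor of BBS10 at 688 kb with 3 and 4 counts. A group at PHLDB2 and ABHD10 (chr3:111607518-111707261) also held 11 hub anchors and ranked after the chromosome 12 group by its summed count. Over these 9 groups the strong loops had a median length of 27.3 to 69.6 kb and the median same-anchor count per kilobase of the hub anchors was 3.24 to 6.61.

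Hub anchors without a start site included those near growth factor genes and near a noncoding RNA. The hub anchor between AREGB and BTC, which encodes the EGFR ligand betacellulin, had 21 strong loops and 247 and 277 counts (chr4:75542196-75568786, 26591 bp). It shared 28 and 32 counts with the hub anchor 24.0 kb away and 20 and 25 with the one 150 kb away. The promoter of EREG, the gene of the EGFR ligand epiregulin, had 3 strong loops. On chromosome 9, a hub anchor of 26839 bp with 20 strong loops (258 and 362 counts, chr9:21664319-21691157) shared 11 and 33 counts with the anchor of the start site of MIR31HG, the host of miR-31, at 113 kb.

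The strongest loop of any hub anchor joined a pair of hub anchors in VMP1, the autophagy gene next to miR-21, 44.5 kb apart, with 46 and 51 counts (97 in all, 78.7 to 118). Hub anchors in PDP1 were joined by 44 and 48 counts at 8.47 kb, in VTI1A by 37 and 49 at 11.4 kb and in PHLDB2 by 45 and 40 at 10.6 kb. A pair within ACTN4, the gene of the actin crosslinker alpha-actinin-4, had 25 and 60 counts.

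Only 268 of 19229 autosomal protein-coding genes (1.39%) had a hub anchor in their promoter window, while 6074 (31.6%) had an anchor with at least 1 strong loop. After TRIB1, TCF7L2 and PDP1, the anchors with a protein-coding start site and the most strong loops were those of HMGA2, a chromatin protein of embryonic and tumour cells, and SOCS6, a suppressor of cytokine signalling, with 15 loops each, CUEDC1 with 13 and BCL9L, a cofactor of beta-catenin, with 12. Counts within 2 Mb were 116 and 153 for HMGA2, 95 and 112 for SOCS6, 157 and 183 for CUEDC1 and 117 and 121 for BCL9L.

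The lists of genes below were assembled with earlier results of these data in view, and their counts are given beside the 1.39% of all genes without a test. Of 16 genes of epithelial adhesion and keratins, 4 had a hub anchor in the promoter window: KRT18 and KRT19, the simple epithelial keratins, ITGA6, the alpha-6 integrin, and JUP, the plakoglobin of desmosomes. Each of these hub anchors had 5 strong loops. For KRT18 it was the anchor next to that of the start site (chr12:53335062-53340687), reached only by the window. The anchor with the KRT18 start site was not a hub anchor and shared 5 and 4 counts with it. KRT19 had 49 and 63 counts within 2 Mb and was joined to a hub anchor 617 kb away by 4 and 6 counts. EPCAM and CDH1, the adhesion genes of the same list, had 0 strong loops, with 10 and 18 and with 4 and 11 counts. KRT8, the partner keratin of KRT18, had 3.

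Among the 5 enhancer target genes that the study itself names, ITGB4, the integrin partner of ITGA6, had 5 strong loops (34 and 49 counts) and GALK1, the galactokinase gene, had 8 (58 and 71 counts). Both were joined to the same hub anchor in SAP30BP (chr17:73678995-73682374), ITGB4 by 1 and 5 counts at 39.2 kb and GALK1 by 3 and 8 at 78.4 kb. The loops counted here are to any anchor, and colorectal-cancer-specific enhancers were not marked. The study gives GALK1 only as a possible target, whose signal with such an enhancer was not robust in its data. Of its 7 super enhancer genes, only EPHA2, an ephrin receptor, had a hub anchor, with 27 and 47 counts and 5 loops. The study named both sets from these samples or from related ones, so they are not independent evidence.

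Among 16 WNT pathway targets, TCF7L2 and CCND1, the gene of cyclin D1, were the members with a hub anchor. CCND1 had 6 strong loops and 58 and 80 counts, and was joined to the MYEOV hub anchor 387 kb away by 4 and 3 counts and to TPCN2 at 579 kb by 2 and 6. AXIN2 had 0 strong loops and SOX9 had 2. MAFK was the member among 12 AP-1 factors (5 loops), SMAD3 among 12 genes of the TGF-beta and BMP pathway (7 loops in a promoter anchor of 2305 bp) and SRF among 11 genes of cytoskeleton and serum response (5 loops). Among 12 genes of RAS-ERK feedback, 9 of the EGFR family and its ligands, 12 p53 targets and 12 intestinal transcription factors, 0 had a hub anchor, while 7, 5, 4 and 7 of them had at least 1 strong loop.

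The hosts of noncoding RNAs had the highest share of the lists, 4 of 9. MALAT1 and NEAT1, neighbouring nuclear RNAs of chromosome 11, had 6 and 10 strong loops, and NEAT1 had 63 and 99 counts. The 6 loops were those of the anchor next to that of the MALAT1 start site (chr11:65259798-65262901). The anchor with the MALAT1 start site was also a hub anchor. MIR31HG had 7. In the promoter window of MIR23AHG, the host of miR-23a, a hub anchor had 12 strong loops, 164 and 192 counts within 2 Mb and 136 and 144 same-anchor counts, the highest same-anchor count of replicate 1 among all hub anchors. It was the anchor next to that of the start site (chr19:13956196-13966080), reached only by the window. The anchor with the MIR23AHG start site was not a hub anchor.

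Of 7 blood genes, 7 of stroma and endothelium and 8 of neurons and glia, 0 had a hub anchor and 2 of each list had at least 1 strong loop. Lists of this size are too short to tell these values from the 1.39% and 31.6% of all protein-coding genes. Of 8 markers of colonic epithelium, KRT18 and KRT19 had a hub anchor in the promoter window and 5 had at least 1 strong loop. For KRT18 it was not the anchor of the start site.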

How the data were processed

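The samples were 2 HiChIP libraries for H3K27ac from the line HCT116, in 1 group. The authors generated valid pairs with Hi-C-Pro and called loops with hichipper. The deposited tables hold raw, unnormalized counts of read pairs joining anchors of the same chromosome. The submitters' processing notes name HiC-Pro and hg19. Versions, the source of the anchors and distance limits are not given in the sources used here. Of the autosomal anchor starts, 247255 of 247256 lay on GATC of GRCh37. Positions are counted from 1.

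Counts of both replicates were summed per anchor pair. Genes came from GENCODE release 44 lifted to GRCh37, and a promoter was the canonical start site ± 2.5 kb. Hub anchors outside genes were named by neighbouring genes. Sequences and motifs were read from GRCh37. The split of counts between replicates was tested by a two-sided exact binomial test with Benjamini-Hochberg adjustment, which was tested on simulated data. Poisson 95% intervals cover counting error only, since the tables hold no molecular identifiers. All other values are descriptions.

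The genes named are those at the 15 hub anchors with the most strong loops, those with a start site in the 8 largest groups (a tie at the last place was ordered by summed count) and the members with a hub anchor of 15 lists and of a set of 8 markers of colonic epithelium. Other genes were named after their values had been seen. The members and lists were chosen with earlier results of these data known. CCAT1 and PECAM1 were not matched by symbol. GATA1 and FLNA, on chromosome X, were left out of the counts. Alternatives were the count minimum, the loop minimum, the distance range, neighbouring anchors, the promoter window, the gap and each replicate left out. Leaving out chromosomes 8, 10 and 17, and the alternatives for AP-1 matches, were chosen after seeing the data. Python 3.11.15 was used with numpy 2.4.6, pandas 2.3.3, scipy 1.17.1 and matplotlib 3.10.9.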

Additional observations from a re-analysis of the deposited data

Results flagged for a closer look

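Counts between anchors more than 2 Mb apart were outside the rule, and pairs with a hub anchor that reached a count of 5 or more at such distances were looked up separately. A hub anchor of chromosome 1 (chr1:17050894-17055759) and an anchor on the other arm (chr1:234913201-234916966) shared 8 counts in replicate 1 and 3 in replicate 2, 11 in all, over 218 Mb. On chromosome 10, the hub anchors at chr10:112167637-112176995 and chr10:114290599-114302960, the latter within VTI1A, shared 3 and 3 counts, 6 in all, over 2.12 Mb. The design has no control samples, and the cause of these counts was not tested.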

How the results depend on the processing

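The number of hub anchors depended strongly on the thresholds, and their properties shifted as well. It was 940, and 2021, 519 and 133 with a strong loop minimum of 4, 6 and 10 counts, 1636, 574 and 164 with a minimum of 4, 6 and 10 loops, 313 with midpoints at least 20 kb apart, 440 without loops between neighbouring anchors and 606 without chromosomes 8, 10 and 17. With a limit of 1 Mb or with chromosome X it was 940.

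In the same order (count minimum 4, 6 and 10, loop minimum 4, 6 and 10, at least 20 kb, no neighbours), the share with a promoter was 42.4%, 34.3%, 21.8%, 41.9%, 35.4%, 31.1%, 34.2% and 33.9%, against 39.8%. It was 32.0% with the start site alone, 34.6% with 1 kb on each side and 23.0% for protein-coding genes. The median width, 6035.5 bp, became 5770, 6363, 7989, 5613.5, 6481, 8476, 7511 and 6854 bp. The share within 50 kb of another hub anchor, 71.1%, became 68.1%, 73.4%, 72.2%, 71.8%, 71.1%, 65.2%, 67.7% and 68.9%. It was 57.1% with a gap of 20 kb, 77.2% with 100 kb and 68.2% without chromosomes 8, 10 and 17. The median same-anchor count, 25, became 19, 31, 55, 20, 31, 53, 39 and 33, and 24 without chromosomes 8, 10 and 17. The share of strong loops of 20 kb or more, 57.5%, became 57.7%, 58.3%, 58.9%, 50.3%, 63.6%, 76.0%, 100% and 83.9%, and 59.5% without chromosomes 8, 10 and 17. AP-1 matches per kilobase ran from 0.240 to 0.273 over these alternatives. The cause of these shifts was not tested.

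With replicate 1 or replicate 2 left out and the minimum kept at 5, the number was 207 and 133, the promoter share 29.0% and 27.8%, the width 7196 and 7989 bp, the share within 50 kb 71.5% and 64.7%, the same-anchor count 25 and 25 and the share of 20 kb or more 61.1% and 59.5%. With the minimum lowered to 3, these were 1188 and 748, 41.2% and 38.2%, 5944.5 and 6338.5 bp, 66.1% and 67.4%, 12 and 13, and 61.1% and 62.0%, and of the 1188 and 748, 754 and 588 were among the 940. The test of the split between replicates called 0 hub anchors with same-anchor counts included and at an adjusted p under 0.01.

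No paired analysis was possible because there was only 1 group. With about 17 counts within 2 Mb per anchor, a hub anchor needs a depth far above the median to be seen, and an anchor without 5 strong loops is not shown to lack contacts.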
